A study of Homo sapiens with 6 samples.

Results

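ATF4 and 9 of its standard target genes were examined: the transcription factors DDIT3 and ATF3, the phosphatase subunit PPP1R15A, the pseudokinase TRIB3, the mTORC1 inhibitors SESN2 and DDIT4, and the metabolic genes ASNS, PCK2 and CHAC1. They are 10 of the 61806 genes in the deposited table, matched by symbol, and all 10 were deep enough to be tested. They were chosen by their place in the ATF4 pathway, and also selected on their counts and FPKM in this very comparison, in which PPP1R15A had been seen lower and DDIT4 higher. Their differences between the groups are therefore given as descriptions, with no test of any single member. A count of members past a threshold is printed only beside the share of all genes past it. Poly(A) RNA came from 293T, an immortal line of human embryonic kidney origin, into which a lipid reagent (Lipo2000) carried either a plasmid named GFP-812 (3 libraries) or one named GFP (3 libraries). GFP is a fluorescent jellyfish protein. What the number in GFP-812 means, the time between transfection and harvest, and whether transfected cells were sorted are not in the labels; the series title names truncated NEK1. The replicates are not stated to be separate cultures, so the spread between libraries may be technical.

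Cells under stress phosphorylate the initiation factor eIF2, which lowers protein synthesis as a whole while the messenger RNA of ATF4 is translated more, because of short reading frames ahead of its coding sequence. ATF4 then pairs with other bZIP proteins and induces genes for amino acid supply, for feedback and, under lasting stress, for cell death. This is the integrated stress response. ATF4 is controlled largely at translation, so its RNA level does not measure the protein, and neither eIF2 phosphorylation nor protein was measured here.

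NEK1 was at 493.72 to 562.73 FPKM (counts scaled by exonic length and library total) in the GFP-812 libraries and at 3.82 to 3.99 FPKM in the GFP libraries. Libraries held 14255148 to 17613814 counts. Of the epithelial markers, KRT18 averaged 15.4 FPKM in GFP-812 cells and 14.7 FPKM in GFP cells, and KRT8 10.5 and 9.53 FPKM, while EPCAM, CDH1 and KRT19 stayed at or below 1.19 FPKM in every library. Of the kidney markers SIX2 was near 9.6 FPKM in GFP-812 cells and 9.72 FPKM in GFP cells, and PAX8 did not exceed 0.04 FPKM. Of 5 neuronal markers, the filament genes NEFM and NEFL averaged 68.2 and 33.2 FPKM in GFP-812 cells and 56 and 29.8 FPKM in GFP cells, while INA, STMN2 and ELAVL4 did not exceed 1.08 FPKM in any library. PTPRC, which marks blood cells, was at 0 FPKM in every library. Of the defining markers of the labelled epithelial type, the keratins KRT8 and KRT18 were thus well above 1 FPKM, and EPCAM, CDH1 and KRT19 were not.

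Sequence in front of the genes was read because ATF4 acts through a composite site that joins a C/EBP and an ATF element. The promoters come from RefSeq on GRCh38.p14, and all 10 members matched. The 250 bases before each start were searched on both strands. A member was counted as matched if any of its 1 to 3 starts matched. The shares given beside the members are of single windows and so are not a like measure. The composite, spelled TGATGNAA, was found in front of ASNS, CHAC1 and ATF3, and in 3.16% of all 34788 distinct promoter windows. The cyclic AMP response element TGACGTCA, which ATF proteins can also bind, was found in front of PPP1R15A and in 1.64% of windows. The HIF core ACGTG, the letters that hypoxia-inducible factor recognises, was found in front of ATF4 and DDIT4 and in 18.47% of windows. In the following 30 bases of each promoter, written 5′ to 3′ along the gene's strand, the capitals mark the match; they are shown for the genes on which the results below turn and for the composite sites.
ASNS: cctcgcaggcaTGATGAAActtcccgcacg
CHAC1: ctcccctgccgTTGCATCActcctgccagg
ATF3: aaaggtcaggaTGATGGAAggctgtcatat
PPP1R15A: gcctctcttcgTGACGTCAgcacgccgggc
DDIT4: agaacgttgcttACGTGcgcccggagtcca

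The ASNS match lies 68 to 61 bases before a RefSeq start (window chr7:97872458-97872487, minus strand). The CHAC1 match, on the opposite strand to the gene, lies 209 to 202 bases before the start (chr15:40953251-40953280). The ATF3 match lies 191 to 184 bases before the upstream of its starts (chr1:212565205-212565234), the PPP1R15A match 58 to 51 bases before the start (chr19:48872352-48872381), and the DDIT4 match 125 to 121 bases before the start (chr10:72273787-72273816). Also searched were the shorter core TGACG, which TGACGTCA contains (21.16% of windows; ATF4, PPP1R15A and ASNS), the AP-1 site TGANTCA (6.59%; DDIT3), CCAAT (32.02%; DDIT3, CHAC1, SESN2, DDIT4, ATF3 and PCK2), TATAAA (10.77%; ATF4, PPP1R15A and ATF3) and the endoplasmic reticulum stress element known as ERSE (0.07%; found in front of 0 of the 10), which contains CCAAT. TRIB3 matched none of these. A match is a run of letters and not a bound site, and sites farther away were not searched. Of the 3 genes with a composite match, ATF3 was lower in GFP-812 cells without overlap of the groups (log2 fold change -0.25), ASNS stood at -0.22 with overlap, and the sign for CHAC1 (0.04, SE 0.272) was not determined.

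The 10 genes did not move as a block in GFP-812 cells. They were chosen with opposite movements among them already seen, so the split is a description and not a finding about the pathway. DDIT4 and PCK2 were 1.25-fold and 1.22-fold higher with overlapping groups, and PPP1R15A, SESN2 and ATF3 were at 0.749-fold to 0.84-fold. ATF4, DDIT3, TRIB3, ASNS and CHAC1 lay within or close to the spread of the libraries. Fitted log2 fold changes of GFP-812 over GFP cells ran between 0.32 for DDIT4 and -0.42 for PPP1R15A, with 5 above 0, 5 below 0 and a median of -0.03, beside a median of 0.01 over the 16834 genes tested. With edgeR's quasi-likelihood test fitted across all genes, 5 of the 10 members had an adjusted p under 0.05, against 3.84% of all genes. Those higher were 2 of 10, against 1.18% of all genes, and those lower 3 of 10, against 2.67%. In FPKM the groups did not overlap for 3 members, all lower, against 20.6% of all genes in either direction (8.16% higher and 12.4% lower). The choice of members used this contrast, so nothing is read from these shares. In bulk RNA, fewer cells expressing a gene and less of its RNA per cell cannot be told apart. The number past the threshold was 2 (0 higher) when GFP replicate 1 was left out, beside 263 of 17358 genes. It was 3 without GFP-812 replicate 3, beside 292 of 17243 genes. Without each other library it was 4 or 5, with the range of gene counts given at the end. DESeq2 passed 3 (0 higher), beside 461 of the 8019 genes given an adjusted p, and gave DDIT3, TRIB3, ASNS and CHAC1 none. Limma on log2(FPKM + 1) passed 0, beside 3 of 12984 genes. It gave 4 members an unadjusted p under 0.05, beside 2071 of those genes.

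**Figure D1:**
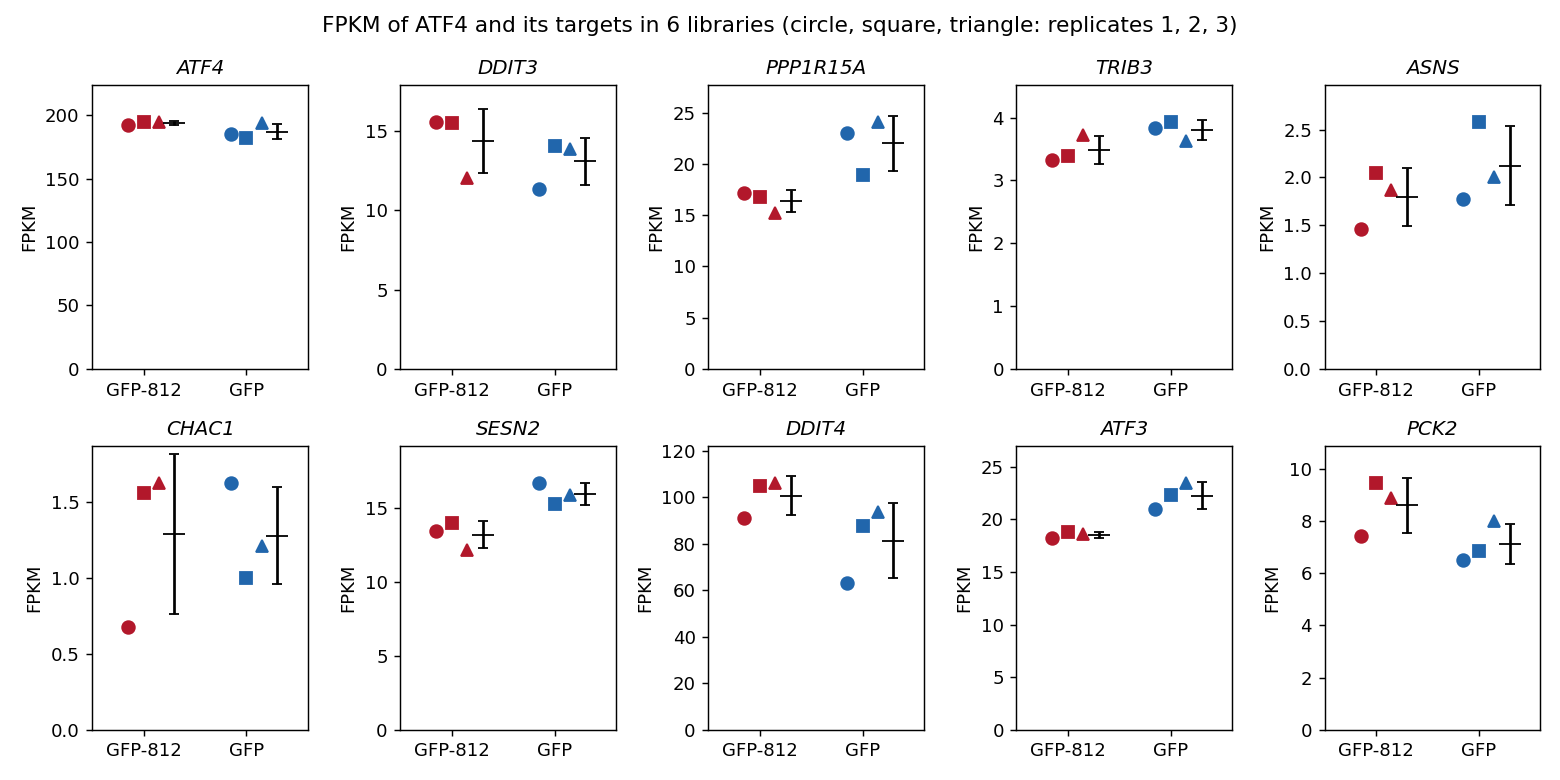
FPKM (vertical axes, each starting at 0) of the 10 genes in the GFP-812 libraries (red, left) and the GFP libraries (blue, right), with replicates 1, 2 and 3 as circle, square and triangle and the mean ± SD of 3 libraries in black. The groups separate for PPP1R15A, SESN2 and ATF3, all lower in GFP-812 cells, and overlap for the other 7.

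ATF4 (ENSG00000128272, hg38 chromosome 22, 39519695 to 39522683, plus strand) was the most abundant of the 10. Its level was 192.25, 194.62 and 194.44 FPKM in GFP-812 replicates 1, 2 and 3, and 185.44, 182.08 and 193.72 FPKM in GFP replicates 1, 2 and 3. GFP replicate 3 lay above GFP-812 replicate 1, so the groups overlapped. Means were 193.8 ± 1.32 FPKM in GFP-812 cells and 187.1 ± 5.99 FPKM in GFP cells (SD, n = 3 each). The log2 fold change was 0.06 (SE 0.0372). That level ranked 127 among the 16834 genes tested. Its CV between GFP-812 libraries was 0.681%, below the 1.12% that counting alone gives, and between GFP libraries it was 3.2%. Its 4 processed copies ATF4P1 to ATF4P4 took few reads, the highest being ATF4P3 with means of 13 counts in GFP-812 cells and 10.7 counts in GFP cells, against 7161 to 8949 counts of ATF4 in every library.

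The transcription factors DDIT3 and ATF3 act downstream of ATF4. DDIT3, also called CHOP, promotes cell death under lasting stress. ATF3 is a bZIP factor that many stresses induce and that often represses its targets. ATF3 (ENSG00000162772, chromosome 1, 212565334 to 212620777, plus strand) was at 18.23, 18.78 and 18.58 FPKM in GFP-812 replicates 1 to 3, against 21, 22.31 and 23.49 FPKM in GFP replicates 1 to 3. Each GFP-812 library was below each GFP library. Means were 18.5 ± 0.278 FPKM in GFP-812 cells and 22.3 ± 1.25 FPKM in GFP cells (SD, n = 3 each), and the log2 fold change was -0.25 (SE 0.0541), or 0.84-fold. It stayed between -0.29 and -0.21 when any 1 library was left out.

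DDIT3 (ENSG00000175197, chromosome 12, 57516588 to 57521737, minus strand) was at 15.57, 15.48 and 12.03 FPKM in GFP-812 replicates 1 to 3, and at 11.37, 14.03 and 13.86 FPKM in GFP replicates 1 to 3. The groups overlapped, since GFP-812 replicate 3 was below both GFP replicates 2 and 3. The log2 fold change of 0.14 (SE 0.106) was 0.26 with GFP-812 replicate 3 removed and 0.05 with GFP replicate 1 removed. Of the exonic bases of DDIT3 in GENCODE 29, 27.2% lie under exons of MARS1 and 4.4% under exons of MBD6, both on the opposite strand. Whether counting used strand is not given in the sources used here, so the DDIT3 level is uncertain; MARS1 stood at means of 25.3 FPKM in GFP-812 cells and 26.8 FPKM in GFP cells.

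PPP1R15A, also called GADD34, brings protein phosphatase 1 to eIF2 and so reverses the phosphorylation that started the response. It was the lowest of the 10 relative to GFP cells. PPP1R15A (ENSG00000087074, chromosome 19, 48872421 to 48876058, plus strand) was at 17.17, 16.75 and 15.19 FPKM in GFP-812 replicates 1 to 3, against 22.98, 18.92 and 24.09 FPKM in GFP replicates 1 to 3. The groups did not overlap, and the nearest libraries were GFP-812 replicate 1 and GFP replicate 2. Means were 16.4 ± 1.04 FPKM in GFP-812 cells and 22 ± 2.72 FPKM in GFP cells (SD, n = 3 each), and the log2 fold change was -0.42 (SE 0.0679), or 0.749-fold. Over the fits that left out 1 library it ranged between -0.52 (GFP replicate 2 removed) and -0.35 (GFP replicate 3 removed). The companion subunit PPP1R15B, which serves the same phosphatase without stress, was at 21.4 ± 0.541 FPKM in GFP-812 cells and 23.5 ± 0.772 FPKM in GFP cells (SD, n = 3 each), with -0.13 as its log2 fold change, which did not pass (SE 0.0424, edgeR adjusted p = 0.0837).

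TRIB3 is a pseudokinase that binds ATF4 and AKT and dampens both. TRIB3 (ENSG00000101255, chromosome 20, 362835 to 397559, plus strand) was at 3.33, 3.39 and 3.73 FPKM in GFP-812 replicates 1 to 3, and at 3.84, 3.93 and 3.63 FPKM in GFP replicates 1 to 3. GFP-812 replicate 3 was above GFP replicate 3, so the groups overlapped. With 156 to 216 reads per library, counting alone gives a CV of 7.41% in GFP-812 cells and 7.05% in GFP cells, and the observed CVs were 6.22% and 3.99%. The log2 fold change was -0.11 (SE 0.119).

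SESN2 and DDIT4 both restrain mTORC1, the kinase complex that promotes protein and ribosome synthesis: SESN2 senses leucine and acts on the GATOR complexes, and DDIT4, also called REDD1, acts through the TSC proteins. SESN2 was lower and DDIT4 higher in GFP-812 cells. SESN2 (ENSG00000130766, chromosome 1, 28259518 to 28282491, plus strand) was at 13.41, 13.98 and 12.17 FPKM in GFP-812 replicates 1 to 3, against 16.71, 15.26 and 15.88 FPKM in GFP replicates 1 to 3. All GFP-812 libraries were below all GFP libraries. Means were 13.2 ± 0.925 FPKM in GFP-812 cells and 15.9 ± 0.728 FPKM in GFP cells (SD, n = 3 each), and the log2 fold change was -0.26 (SE 0.0656). Leaving out 1 library gave -0.31 to -0.20.

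DDIT4 (ENSG00000168209, chromosome 10, 72273919 to 72276036, plus strand) was at 90.98, 104.81 and 106.18 FPKM in GFP-812 replicates 1 to 3, against 62.93, 87.45 and 93.63 FPKM in GFP replicates 1 to 3. GFP replicate 3 lay above GFP-812 replicate 1, and GFP replicate 1 was far below every other library. Means were 100.7 ± 8.41 FPKM in GFP-812 cells and 81.3 ± 16.2 FPKM in GFP cells (SD, n = 3 each), and the log2 fold change was 0.32, or 1.25-fold. edgeR gave it an SE of 0.0643 and DESeq2 one of 0.175. Without GFP replicate 1 it was 0.17. The CV of DDIT4 between GFP libraries was 20%, against 1.9% from counting, so depth did not limit this value.

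DDIT4 is also a known target of hypoxia-inducible factor, and genes of that response were higher in the same comparison. Of 19 tested hypoxia-induced genes 7 rose, 0 fell and 12 did not pass, which is 36.8% against 3.84% of all genes, with a median log2 fold change of 0.18. NDRG1, a stress-induced protein, was at 8.6, 10.58 and 10.93 FPKM in GFP-812 replicates 1 to 3, against 5.82, 7.56 and 8 FPKM in GFP replicates 1 to 3 (log2 fold change 0.51, SE 0.0671, edgeR adjusted p = 7.02e-07). DESeq2 gave NDRG1 an SE of 0.165 and an adjusted p of 0.0421, and limma on log2(FPKM + 1) an adjusted p of 0.169. Replicate 1 was the lowest of its group for NDRG1 as for DDIT4, in GFP-812 and in GFP cells. PGK1 and LDHA, enzymes of glycolysis, rose at log2 fold changes of 0.27 and 0.21, and P4HA1, a collagen prolyl hydroxylase, at 0.24. Risen members of the list numbered 7 by DESeq2, 0 by limma on log2(FPKM + 1) with 8 at an unadjusted p under 0.05, and 4 without GFP replicate 1. Whether hypoxia-type induction had a part in the DDIT4 level was not tested. Genes known to be hypoxia-induced had already been seen to rise in these data when the list was drawn up.

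The metabolic targets gave 1 gene with a higher mean but overlapping groups, and 2 at low levels. PCK2, the mitochondrial enzyme that makes phosphoenolpyruvate, was at 7.42, 9.47 and 8.9 FPKM in GFP-812 replicates 1 to 3, against 6.51, 6.86 and 8 FPKM in GFP replicates 1 to 3. GFP replicate 3 was above GFP-812 replicate 1, and the groups overlapped. PCK2 (ENSG00000100889, chromosome 14, 24094053 to 24110598, plus strand) had means of 8.6 ± 1.06 FPKM in GFP-812 cells and 7.12 ± 0.779 FPKM in GFP cells (SD, n = 3 each). The log2 fold change was 0.29, with an SE of 0.083 from edgeR and 0.111 from DESeq2. Leaving out 1 library gave 0.22 (GFP-812 replicate 2 removed) to 0.38 (GFP replicate 3 removed). NRL overlaps it on the opposite strand but shares 0 exonic bases with it.

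ASNS makes asparagine and is among the most used readouts of ATF4. ASNS (ENSG00000070669, chromosome 7, 97851677 to 97872542, minus strand) was at 1.46, 2.05 and 1.87 FPKM in GFP-812 replicates 1 to 3, and at 1.78, 2.58 and 2.01 FPKM in GFP replicates 1 to 3, from 102 to 203 reads per library. The groups overlapped, and the log2 fold change of -0.22 (SE 0.142) was -0.07 with GFP replicate 2 removed and -0.33 with GFP replicate 1 removed. This level is uncertain for a reason of annotation: 44.6% of the exonic bases of ASNS in GENCODE 29 also belong to the gene ENSG00000284707 on the same strand, and how reads falling in both were assigned is not given in the sources used here. That gene itself had means of 14.7 counts in GFP-812 cells and 19.7 counts in GFP cells. ASNS has 4455 exonic bases in GENCODE 29 and a deposited exonic size of 4896. The shared part of the gene model that was counted may therefore differ. The pseudogene ASNSP1 stood as high as ASNS, at means of 2 FPKM in GFP-812 cells and 2.75 FPKM in GFP cells.

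CHAC1 degrades glutathione. CHAC1 (ENSG00000128965, chromosome 15, 40952962 to 40956512, plus strand) had the fewest reads, 20, 50 and 59 in GFP-812 replicates 1 to 3 and 54, 33 and 40 in GFP replicates 1 to 3. These gave 0.68, 1.56 and 1.63 FPKM in GFP-812 cells and 1.63, 1 and 1.21 FPKM in GFP cells. GFP-812 replicate 1 was the lowest of all 6 and the ranges overlapped. The log2 fold change of 0.04 (SE 0.272) changed sign with the library left out, between -0.16 without GFP-812 replicate 3 and 0.32 without GFP-812 replicate 1, and was -0.01 with limma on log2(FPKM + 1). An approximate 95% interval, -0.49 to 0.58, covers the log2 fold changes of all the other 9 members. The CV of CHAC1 was 40.9% in GFP-812 cells and 25% in GFP cells, against 15.2% and 15.4% from counting alone, so the spread between libraries exceeded counting error.

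**Figure D2:**
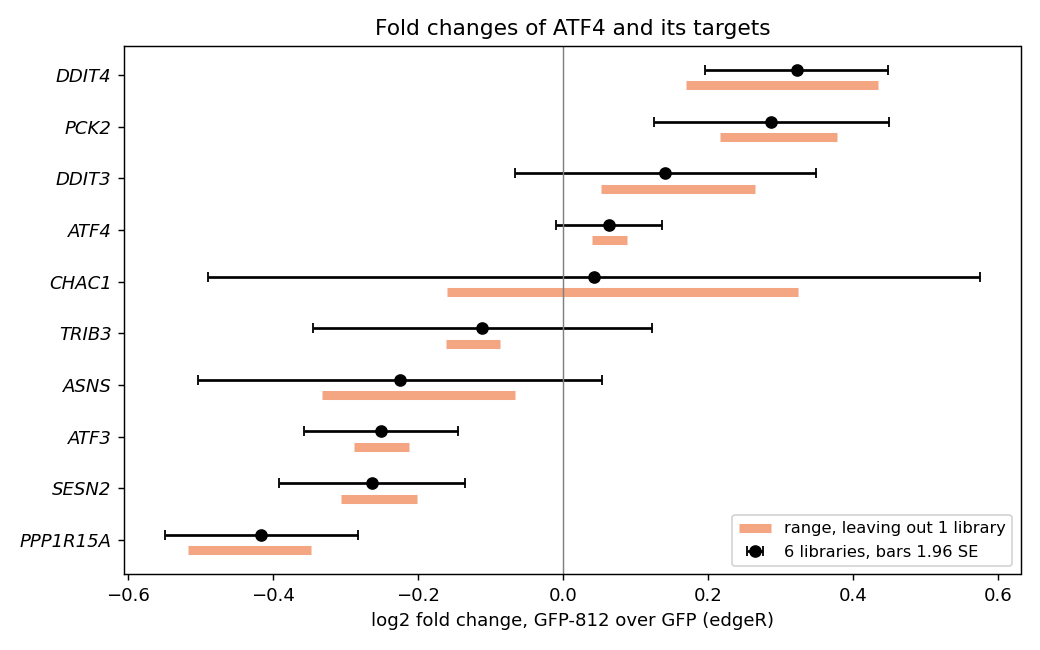
Log2 fold change of GFP-812 over GFP cells (horizontal axis) for the 10 genes, with points and bars of the approximate 95% interval from edgeR on 6 libraries and orange bars for the range over the 6 fits that leave out 1 library. CHAC1 alone crosses 0 among the orange bars, and DDIT4 spans 0.17 to 0.44.

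By FPKM, ATF4 and DDIT4 stood at the 99.2 and 98.1 percentile of the tested genes. ATF3, PPP1R15A, SESN2 and DDIT3 lay at percentiles 87.1, 86.3, 81.6 and 80.5. In GFP-812 cells the range of DDIT3 overlapped those of PPP1R15A and SESN2, while ATF3 stood above all 3; in GFP cells ATF3 and PPP1R15A overlapped, and SESN2 and DDIT3 stood below them and apart. PCK2 was next at 68.8, followed by TRIB3 at 51.4, ASNS at 38.2 and CHAC1 at 30.1. The FPKM ranges of ASNS and CHAC1 overlapped in GFP-812 cells and not in GFP cells.

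Across all 6 libraries the 10 genes did not share a common rise or fall of single libraries. Correlations of deviations from the group means were positive for 28 of the 45 pairs of members and negative for 17. They reached from 0.91 for DDIT4 with ATF3 to -0.76 for DDIT3 with TRIB3. Each rests on 6 libraries that share depth and scaling and is a description. DDIT4 and ATF3 thus varied together within groups while standing on opposite sides between them. PPP1R15A and SESN2, both lower, had an r of 0.70 within groups and 0.92 over all 6 libraries. The second value also holds the difference between the groups, which was used in choosing the members, so nothing further is read from it.

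**Figure D3:**
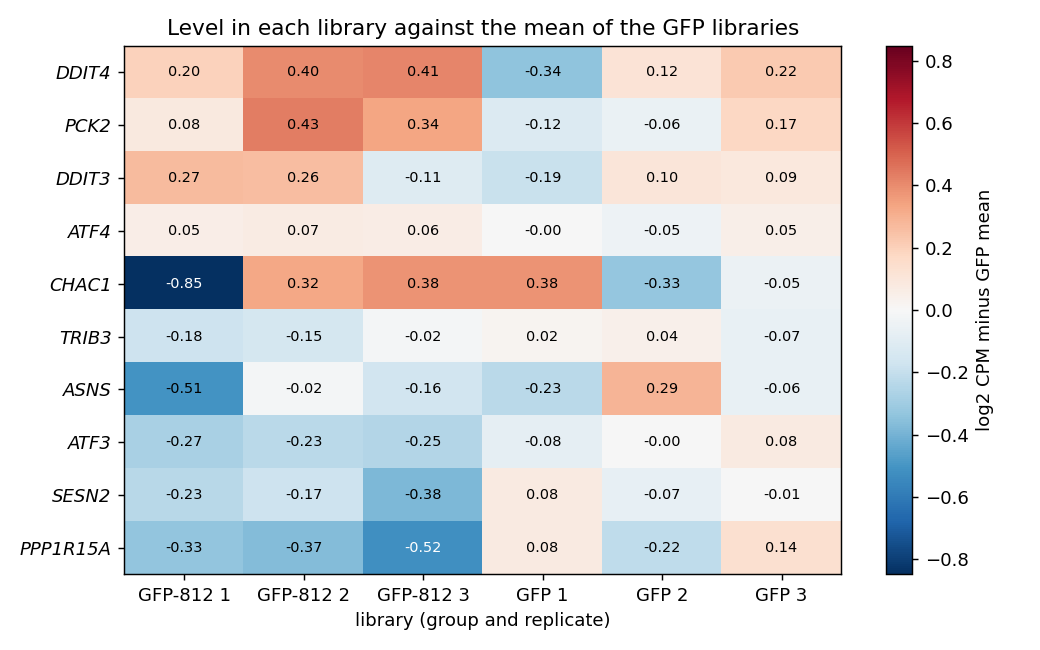
Level of each gene (rows) in each library (columns) as log2 CPM minus the mean of the GFP libraries, with red above and blue below that mean. PPP1R15A, SESN2, ATF3, TRIB3 and ASNS are below 0 in all 3 GFP-812 libraries, ATF4, DDIT4 and PCK2 above 0 in all 3, and CHAC1 is at -0.85 in GFP-812 replicate 1.

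Among 6874 other genes with a symbol and a mean of at least 5 FPKM, those most like DDIT4 by Pearson's r of log2 CPM over the 6 libraries were HILPDA (0.992), BLVRB (0.988) and TMEM64 (0.984), and 93 genes exceeded 0.9. HILPDA, a lipid droplet protein, had a log2 fold change of 0.40 (edgeR adjusted p = 0.000938), and BLVRB and TMEM64 ones of 0.23 and 0.05 that did not pass. Most like PPP1R15A were HSP90AA1 (0.996), SYF2 (0.991) and SUV39H2 (0.991), with log2 fold changes of -0.04, -0.19 and -0.13 that did not pass, and 128 genes exceeded 0.9. Each r rests on 6 libraries that share depth and scaling, includes the difference between the groups, and says nothing of shared control.

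The listed genes around eIF2, some of which start the response and some of which restrain it, showed no call. These were 21 tested genes for the eIF2 kinases, their regulators, eIF2, eIF2B and the phosphatase, without PPP1R15A. In edgeR 0 rose and 0 fell, with 1 at an unadjusted p under 0.05, PPP1R15B, and 0 passed in DESeq2 and limma. The median log2 fold change was 0.01. Of 10 paralogs of the members, 0 passed, with 3 at an unadjusted p under 0.05 and 0 in DESeq2 and limma. Their levels in GFP-812 and GFP cells averaged 25.2 and 25 FPKM for CHAC2, 11.6 and 11.3 for SESN3, 7.64 and 7.6 for TRIB1, 5.81 and 6.04 for SESN1, 5.2 and 4.93 for TRIB2, 1.79 and 1.81 for DDIT4L, 1.55 and 1.72 for ATF5, 0.97 and 0.753 for JDP2 and 0.13 and 0.0633 for PCK1. Thus CHAC2 stood far above CHAC1 on the per-length scale, and PCK1, the cytosolic enzyme, far below PCK2. PPP1R15B fell past the threshold without GFP replicate 3 (-0.15) and with scaling to the total count (-0.14), which made 1 call on each of these lists.

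**Figure D4:**
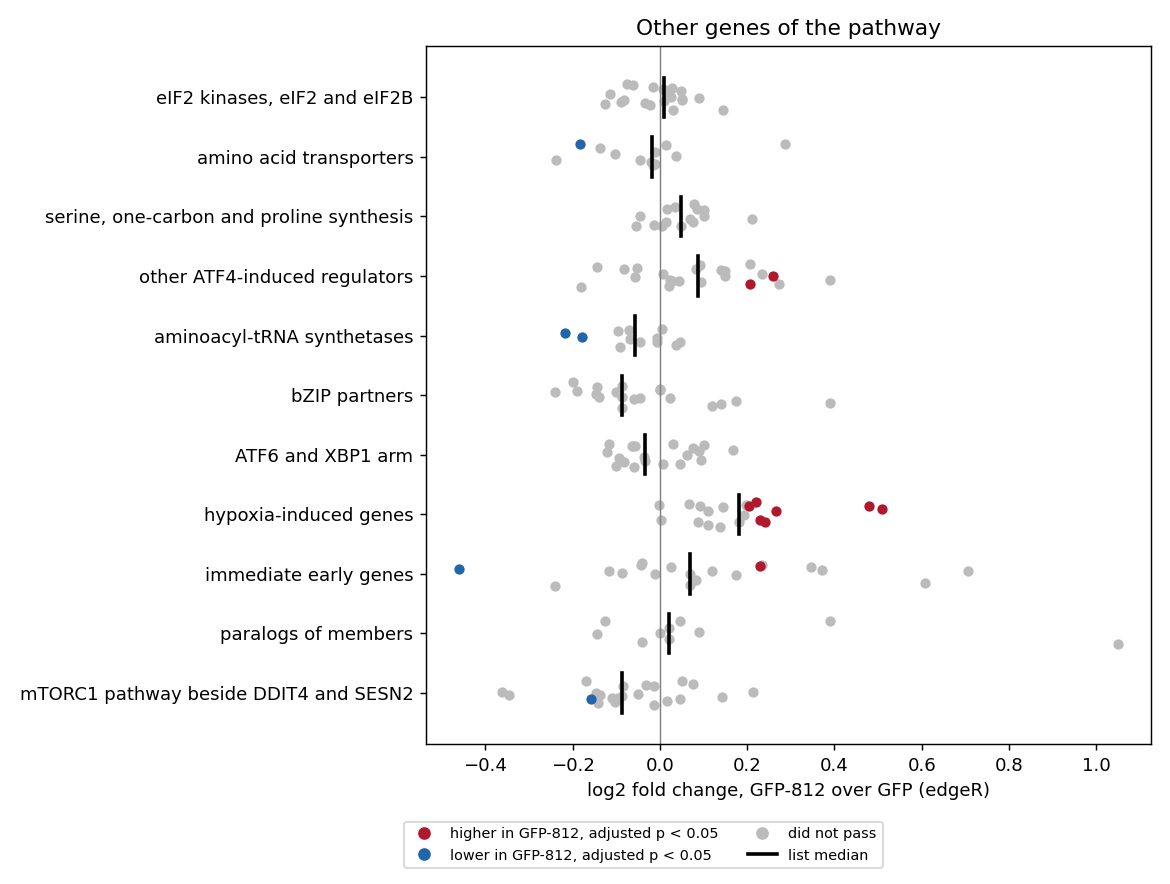
Log2 fold change of GFP-812 over GFP cells (horizontal axis) for each tested gene of 11 lists (rows), with black lines at the list medians, red and blue points for genes higher or lower at an edgeR adjusted p under 0.05, and grey points for the rest. Risen genes are most frequent on the hypoxia list, 7 of 19, against 1.18% of all genes. Hypoxia-induced genes had already been seen to rise in these data when that list was drawn up. The other lists hold 2 calls or fewer each.

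Of 22 tested regulators that ATF4 is known to induce, 2 rose, 0 fell and 20 did not pass. That is 9.09%, against 3.84% of all genes. Of all 22, 17 lay above 0 and 5 below 0, with a median log2 fold change of 0.09. Over all genes tested the median was 0.01, with quartiles of -0.10 and 0.11, so the list median lay between those quartiles. PMAIP1, the cell death protein NOXA, stood at 127.9 ± 2.45 FPKM in GFP-812 cells and 111.8 ± 2.5 FPKM in GFP cells (SD, n = 3 each; log2 fold change 0.21, SE 0.0403, edgeR adjusted p = 0.000723). GADD45A, a growth arrest protein, stood at 25.6 ± 1.78 FPKM in GFP-812 cells and 21.6 ± 0.998 FPKM in GFP cells (SD, n = 3 each; log2 fold change 0.26, SE 0.0675, edgeR adjusted p = 0.0151). PMAIP1 kept its call without each library in turn, and GADD45A lost it after removal of GFP-812 replicate 2, GFP-812 replicate 3 or GFP replicate 1, leaving 1.

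Amino acid supply gave few calls, on short lists. Those past the threshold were 8.33% of transporters, 0% of synthesis genes and 16.7% of aminoacyl-tRNA synthetases, against 3.84% of all genes. Of 12 amino acid transporters 1 fell, SLC7A11, the cystine carrier, at 9.03 ± 0.419 FPKM in GFP-812 cells and 10.3 ± 0.962 FPKM in GFP cells (SD, n = 3 each; log2 fold change -0.18, SE 0.0552, edgeR adjusted p = 0.0469), and the list median was -0.02. It did not pass after removal of GFP replicate 2 or of any 1 GFP-812 library, nor in DESeq2 or with a minimum mean of 1 FPKM. With scaling to the total count 2 transporters fell, and 3 did without GFP replicate 3. Of 15 genes of serine, one-carbon and proline synthesis 0 passed, with 2 at an unadjusted p under 0.05 and 0 in DESeq2 and limma, at a median of 0.05. The smallest p was that of ASS1, which makes argininosuccinate (log2 fold change 0.21, SE 0.0819, edgeR adjusted p = 0.148), and it passed without GFP replicate 3 (0.30). Of 12 aminoacyl-tRNA synthetases TARS1 fell (log2 fold change -0.22, SE 0.0394), at 92.6 ± 1.55 FPKM in GFP-812 cells and 108.5 ± 5.63 FPKM in GFP cells (SD, n = 3 each), and so did CARS1 (-0.18, SE 0.0548). The list median was -0.06, and calls on it were known when it was drawn up. TARS1 was past the threshold in each fit that left out 1 library, whereas CARS1 was past it in 1 of those 6 fits, the one without GFP replicate 2, and neither in DESeq2 nor with a minimum mean of 1 FPKM.

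Neither the listed bZIP proteins that can pair with ATF4 nor the other arms of the endoplasmic reticulum stress response had a call. The bZIP list leaves out the members, among them ATF3, a bZIP factor that was lower in GFP-812 cells (log2 fold change -0.25). Of 19 bZIP partners 0 passed, with 5 at an unadjusted p under 0.05 and 0 in DESeq2 and limma; 13 lay below 0 and the median was -0.09. The smallest p was that of NFE2L2, the antioxidant factor NRF2 (log2 fold change -0.19, SE 0.0637, edgeR adjusted p = 0.0805). Of 20 genes of the ATF6 and XBP1 arms 0 passed, with 4 at an unadjusted p under 0.05 and 0 in DESeq2 and limma, at a median of -0.04. PDIA4, a disulfide isomerase, had the smallest p (log2 fold change 0.10, SE 0.0378, edgeR adjusted p = 0.129). Without GFP replicate 3, 2 bZIP partners fell, NFE2L2 among them (-0.24), and 3 genes of the ATF6 and XBP1 list rose, PDIA4 among them (0.12).

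PPP1R15A and ATF3 are also induced quickly by growth factors, and immediate early genes were therefore counted. Of 19 tested 1 rose and 1 fell, which is 10.5% against 3.84% of all genes, with a median of 0.07. EGR1, a zinc finger factor, stood at 2.81 ± 0.446 FPKM in GFP-812 cells and 3.93 ± 0.237 FPKM in GFP cells (SD, n = 3 each; log2 fold change -0.46, SE 0.131, edgeR adjusted p = 0.031), and IER5 at 14 ± 0.667 FPKM in GFP-812 cells and 12.1 ± 0.176 FPKM in GFP cells (SD, n = 3 each; log2 fold change 0.23, SE 0.0617, edgeR adjusted p = 0.0195). EGR1 passed in 1 of the 6 fits that left out a library, the one without GFP replicate 3, and DESeq2 gave it no adjusted p. IER5 did not pass after removal of replicate 1 or 2 of either group. Of 22 genes of the mTORC1 pathway, MTOR itself fell (log2 fold change -0.16, SE 0.0481, edgeR adjusted p = 0.0469) and 0 rose, with 16 below 0 and a median of -0.09. That call was 4.55% of the list, against 3.84% of all genes. MTOR did not pass in DESeq2 or with a minimum mean of 1 FPKM, nor after removal of GFP-812 replicate 2 or 3, or of GFP replicate 1 or 2. In the fit without GFP replicate 3, 1 gene of the list rose and 1 fell.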

How the data were processed

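Poly(A) RNA of 6 libraries was sequenced. The upstream tools, per the submitters' processing notes, include HTSeq 0.6.1, HISAT2 2.2.1, cutadapt 1.9.1 and FastQC 0.10.1, with hg38 as the build. The sources used here give neither the strand setting nor the annotation release. The authors deposited raw counts and FPKM per gene, the FPKM being counts divided by the deposited exonic size, in bases, and by the library total. Counts were tested with edgeR 4.0.16 in R 4.3.3 (filterByExpr, TMM, quasi-likelihood, group as the single term), adjusted by Benjamini-Hochberg over 16834 genes with a threshold of 0.05; the procedure was tested on simulated counts. Standard errors were computed from the F statistic. Groups and replicate numbers come from the sample titles. Named genes were the 10 members and, per list, up to 4 genes past the threshold with the smallest p, or the 1 with the smallest p, plus all paralogs and 3 genes most like the highest and the lowest member. The members and the 11 lists were chosen with earlier results of these data known. Alternatives were DESeq2 1.42.0, limma 3.58.1 on log2(FPKM + 1) and log2(FPKM + 0.1) at a mean FPKM of at least 1, other scalings and filters, a replicate block, and leaving out each library. Overlaps were computed on GENCODE 29. No library was a repeat of another: counts of same-group pairs differed by 2.13 to 4.03 times sampling noise (chi-square per degree of freedom).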

Additional observations from a re-analysis of the deposited data

How the results depend on the processing

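Over all genes, 647 passed in the edgeR fit, 461 in DESeq2, 3 in limma on log2(FPKM + 1) and 2 in limma on log2(FPKM + 0.1), where 2071 and 2074 genes had an unadjusted p under 0.05. Of the 10 members 5 passed, against 3 in DESeq2 and 0 in both limma fits. Of 176 tested genes on the lists 15 passed, against 0 in both limma fits, with 41 at an unadjusted p under 0.05 in each. Leaving out 1 library gave 209 to 1317 genes, 2 to 5 members and 7 to 26 list genes; the lowest gene count was without GFP-812 replicate 2 and the highest without GFP replicate 3. Other scalings and filters kept 5 members past the threshold, beside 621 genes (no filter on low counts) to 736 genes (scaling to the total count). The cause of these differences was not tested.

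Replicate numbers gave no clear pairing of the libraries. Same-numbered libraries had correlations of deviations of 0.107, 0.000449 and -0.0224, and differently numbered ones -0.0998 to 0.103. With 3 libraries per group these values cannot settle whether the libraries were paired. With the number as a block, 777 genes, 5 members and 16 list genes passed. The spread of TRIB3 between libraries was no larger than counting gives, whereas CHAC1 and ASNS varied more than counting gives (ASNS CVs of 16.9% in GFP-812 cells and 19.2% in GFP cells, against 8.45% and 7.73%).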
